A study of Mus musculus with 13 samples.

Results

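The collagen genes are the 44 mouse genes whose symbol is Col, a number, a and a number, such as Col1a1, out of 55487 genes in the count tables. All 44 symbols had at least 10 counts summed over the 13 libraries, the minimum asked for, which 28079 genes of the tables reached. They were read as 11 fibrillar collagens, 6 basement membrane collagens, 9 fibril-associated collagens with interrupted triple helices (FACIT) and 18 others, namely the beaded filament, anchoring fibril, short chain network, transmembrane and multiplexin collagens and their relatives. Collagen levels were compared between primary and spontaneously immortalized mouse embryonic fibroblasts (MEFs) of 2 genotypes.

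Collagens are mostly secreted proteins, with some transmembrane ones, in which a trio of chains winds into a triple helix. Some types, such as type I, combine chains of different genes, and others, such as type III, use a single kind of chain. Fibrillar collagens form the tensile fibers of skin, bone and cartilage, network collagens such as type IV form the sheet under epithelia and around vessels, and FACIT collagens sit on the surface of fibers. Fibroblasts are the main producers of fibrillar collagen in connective tissue, and type I collagen, made of the Col1a1 and Col1a2 chains, is their most abundant product.

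Poly-A RNA was sequenced from wild-type (WT) primary MEFs of clones 3, 4 and 5, from the WT immortalized lines 3, 4 and 5, from Prkd3-/- primary MEFs of clones 13, 14 and 15, and from the Prkd3-/- immortalized lines 13, 13a, 14 and 15. Cells of both genotypes grew in medium with 10% fetal calf serum, were passaged serially to senescence and were then kept in 20% serum until colonies gave rise to lines, which per the study's methods were grown in 10% serum again. Each library is 1 clone or line, line 13a carries the number of clone 13, and primary cells and lines differ in passage and culture history as well as in state, which cannot be told apart. Genotype and count table coincide, so levels set across genotypes may also carry differences between the 2 tables. In bulk RNA, fewer cells of a type and less RNA per cell cannot be told apart.

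Library totals ranged from 35273408 to 100441756 counts, and levels are given per 1000000 counts of a library after scaling (CPM). The Prkd3 gene, as a check of the labels, had 69.2 to 73.7 CPM in WT primary MEFs, 73.6 to 93.8 in WT lines, 33.6 to 43.2 in Prkd3-/- primary MEFs and 43.8 to 61.0 in Prkd3-/- lines, so its counts were lower but not absent under the Prkd3-/- label. The 10 fibroblast markers were detected in every group, with a summed level of 5690.2 to 9858 CPM over all libraries. That sum does not show the spread of single markers among lines. Dcn had 0.66 CPM in WT line 3 and 0.38 and 0.70 in Prkd3-/- lines 13 and 15. Thy1 had 36.3 to 862 CPM in WT lines against 363 to 379 in WT primary MEFs. In Prkd3-/- it had 4.85 to 895 CPM in lines against 453 to 811 in primary MEFs. Pdgfra had 27.5 to 484 against 148 to 157 CPM in WT, and 10.2 to 125 against 48.8 to 102 in Prkd3-/-. The 10 macrophage markers summed to 648 to 682 CPM in WT primary MEFs and 33.0 to 95.3 in WT lines, and no marker was at 0 in a whole group. Among Prkd3-/- primary MEFs, clone 14 stood apart with 1042 CPM of macrophage markers, against 87.3 and 208 in clones 13 and 15.

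A few collagen genes carry the results at the level of sequence, and the bases around their RefSeq starts (GRCm38.p6) are given for that reason. Col15a1 was the collagen that passed the thresholds in WT, Col24a1 was lower in every line of both genotypes, Col10a1 had one of the lowest Log2FC values in both genotypes, and Col4a1 and Col4a2 are divergent neighbors whose first exons overlap. Each of the 3 longer stretches runs from 150 bases before the start to 10 bases after it, on the plus strand, and capitals mark a searched motif where a stretch holds one, which the Col15a1 stretch does not.
Col15a1: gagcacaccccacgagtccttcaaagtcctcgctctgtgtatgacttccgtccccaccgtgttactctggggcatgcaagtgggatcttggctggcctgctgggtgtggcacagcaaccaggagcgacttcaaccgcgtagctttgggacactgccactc
Col24a1: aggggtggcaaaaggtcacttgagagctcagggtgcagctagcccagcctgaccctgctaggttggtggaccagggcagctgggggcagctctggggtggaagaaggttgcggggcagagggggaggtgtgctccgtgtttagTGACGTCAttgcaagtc
Col10a1: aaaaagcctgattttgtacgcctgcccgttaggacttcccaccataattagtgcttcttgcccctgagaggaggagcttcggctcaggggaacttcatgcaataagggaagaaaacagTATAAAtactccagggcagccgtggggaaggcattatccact
Col4a1/Col4a2 overlap: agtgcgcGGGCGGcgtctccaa
The stretches lie at chr4:47207862-47208021, chr3:145292322-145292481, chr10:34389831-34389990 and, for the 22 bases that both the Col4a1 gene (minus strand) and the Col4a2 gene (plus strand) contain, chr8:11312805-11312826. Promoter windows of 300 bases, with 250 before the start, were found for 35 of the 44 collagen genes (38 windows) and were searched on both strands for 4 motifs. TATAAA, the TATA box, begins 32 bases before the Col10a1 start and was in 5 of 38 collagen windows and 13.6% of all windows. TGACGTCA, the cyclic AMP response element, begins 7 bases before the Col24a1 start and was in 1 of 38 collagen windows and 1.79% of all windows. CCAAT was in 13 collagen windows and 37.4% of all windows. The GC box GGGCGG was in 23 and in 35.7%, and the Col4a1 and Col4a2 windows held both. The Col15a1 window held none of these letters, and its RefSeq start lies 149 bases from the start in the count table. A match describes letters and is neither a binding site nor a cause of a level.

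The share of the RNA on collagen transcripts did not separate lines from primary MEFs, and the lines scattered around the primary level. In WT primary MEFs they made up 5.72%, 5.85% and 5.70% of all counts in clones 3, 4 and 5, and in the lines 5.31%, 8.68% and 4.25%. In Prkd3-/- primary MEFs the shares were 4.61%, 3.27% and 3.55%, and in lines 13, 13a, 14 and 15 they were 2.14%, 3.62%, 4.42% and 3.43%. The lines lay on both sides of the primary libraries in WT, and in Prkd3-/- the groups overlapped, so neither difference of means (0.33 and -0.41 percentage points, lines minus primary) exceeded the spread. In WT the sign of the difference turned without line 4 (-0.97) and without Col1a1 among the counts (-0.25). Col1a1 alone took 33.6% of collagen counts, Col1a1 and Col1a2 together 53.2%, and 10 genes took 93.3%. By class, fibrillar genes held 75.1% ± 0.72 (SD, n = 3) of collagen counts in WT primary MEFs, 75.0% ± 7.19 (n = 3) in WT lines, 74.7% ± 0.74 (n = 3) in Prkd3-/- primary MEFs and 75.2% ± 1.21 (n = 4) in Prkd3-/- lines. Basement membrane genes held 4.61% ± 0.13 and 8.29% ± 4.13 of collagen counts in WT primary MEFs and lines, and 7.27% ± 4.46 and 7.84% ± 3.40 in the Prkd3-/- groups. FACIT genes held 12.2% ± 0.31 and 8.86% ± 6.10 in WT and 10.2% ± 4.26 and 4.68% ± 1.37 in Prkd3-/-, with overlap between states in both. The remaining genes held 7.36% to 8.54% in Prkd3-/- primary MEFs and 9.61% to 16.3% in the lines, without overlap, and 7.75% to 8.36% and 6.10% to 9.93% in WT.

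**Figure D1:**
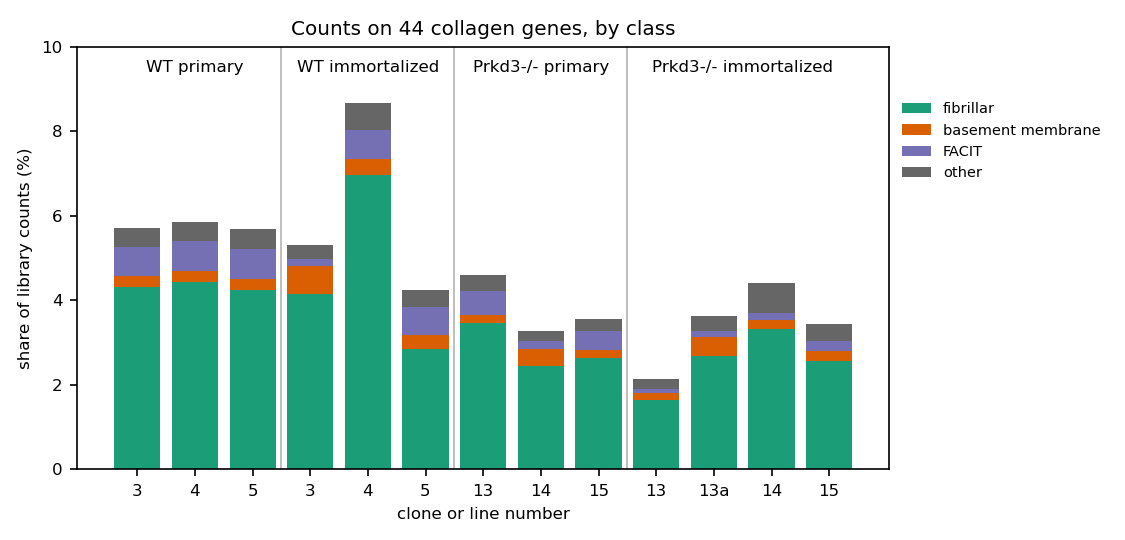
Share of each library's counts on the 44 collagen genes (y axis, percent), stacked by class, for the 13 libraries (x axis, clone or line number within group). WT line 4 reaches 8.68% and Prkd3-/- line 13 only 2.14%, while fibrillar genes make up most of every bar.

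Whether single collagen genes differed between lines and primary MEFs was tested within each genotype by edgeR over all genes, and a gene was called at an adjusted p under 0.01 and an absolute Log2FC of at least 1. In WT, 1 of 43 tested collagen genes was called, Col15a1, which was lower, and none was higher, where 1.82% of all 19836 genes were called, 1.76% lower and 0.0605% higher. Col13a1 was not tested for low counts. DESeq2, the tool of the study, called 10 of the collagen genes at the same thresholds (8 lower, 2 higher) and 5.94% of all genes (5.39% lower, 0.545% higher), so the count depended on the tool. It also depended on single libraries, with 0 called without any 1 of the primary clones. There were 4 without line 3 (Col4a4, Col4a6, Col9a2 and Col15a1), 2 without line 5 (Col10a1 and Col25a1) and 1 without line 4 (Col26a1). Shares of all genes called in these refits are not given, so the counts describe the collagen genes alone. Without a threshold on the test, every WT line lay below every primary clone for 13 collagen genes and above for 6, against 17.3% and 14% of all genes, and the median Log2FC was -0.11 against 0.04 over all genes. At an unadjusted p under 0.05, 15 of 43 collagen genes passed, against 19.7% of all genes.

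In Prkd3-/-, edgeR called 0 of 41 tested collagen genes and 0 of 20298 genes (0%). Col9a1, Col13a1 and Col26a1 were not tested for low counts. At an unadjusted p under 0.05, 5 collagen genes passed (Col10a1, Col12a1, Col18a1 and Col24a1 lower, Col2a1 higher), against 6.56% of all genes. DESeq2 called 1, Col24a1, which was lower, and 0.781% of all genes (0.67% lower). Every line lay below every primary clone for 1 collagen gene, Col24a1, and above for 0, against 5.26% and 4.19% of all genes. The change differed between genotypes for 0 of 43 collagen genes and 0 of 21197 genes (0%) in the interaction test of edgeR at an adjusted p under 0.05. At an unadjusted p under 0.05 it differed for 6, against 3.97% of all genes, and DESeq2 called 0 collagen genes and 0.123% of all genes.

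**Figure D2:**
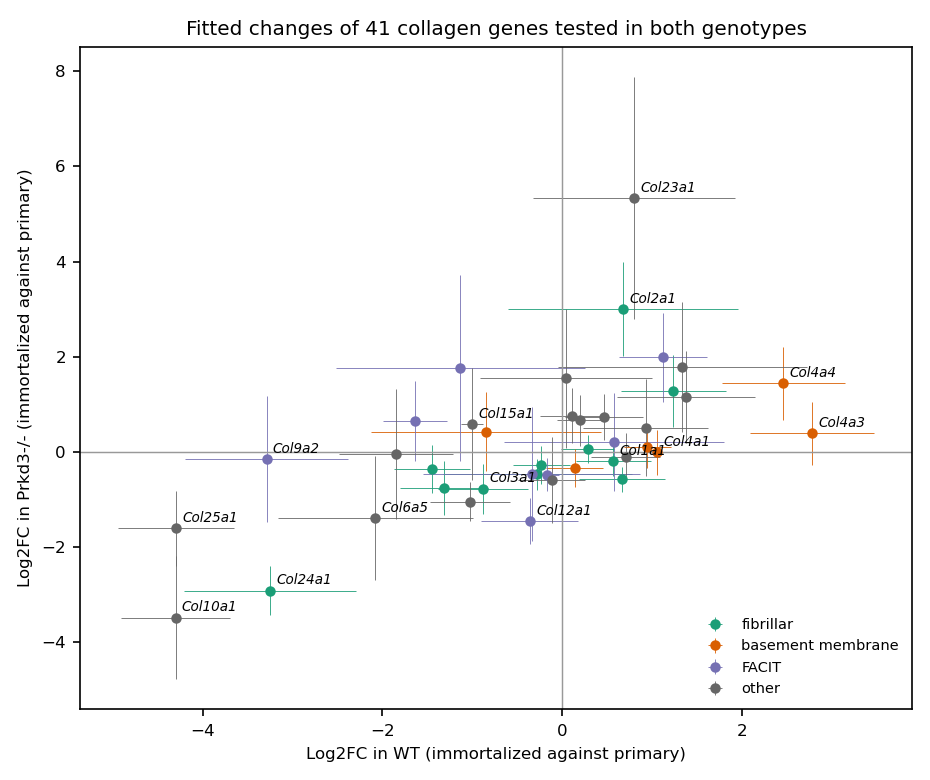
Log2FC of immortalized lines against primary MEFs in WT (x axis) and in Prkd3-/- (y axis) for the 41 collagen genes tested in both genotypes, with bars of 1 SE and colors by class. Col10a1 and Col24a1 lie lowest in Prkd3-/- and low in WT, where Col25a1 and Col9a2 lie below Col24a1, Col23a1 has the widest bar in Prkd3-/-, and 18 of the 41 genes lie within 1 of 0 in both genotypes.

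Among the fibrillar genes, the abundant Col1a1, Col1a2, Col3a1, Col5a1 and Col5a2 had no shift common to the lines, whereas Col24a1 was lower in all of them. By mean level per kilobase of exon over the 13 libraries, Col1a1 stood first with 2438 CPM per kilobase, followed by Col1a2 with 739.7, Col3a1 with 389, Col5a1 with 343 and Col5a2 with 280.2. Of the 11 fibrillar genes, 0 were called by edgeR in either genotype, 3 and 2 passed an unadjusted p under 0.05 in WT and Prkd3-/- (19.7% and 6.56% of all genes), and DESeq2 called 1 in each, Col24a1 (5.94% and 0.781% of all genes).

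Col1a1, the alpha 1 chain of type I collagen (chr11:94936224-94953042), had 17020.4, 17009 and 16629.6 CPM in WT primary clones 3, 4 and 5 and 22676, 39237 and 13514 in lines 3, 4 and 5. Its Prkd3-/- levels were 15802, 9617 and 12219 CPM in primary clones 13, 14 and 15 and 7789, 13853, 13981 and 8631 in lines 13, 13a, 14 and 15. Lines lay above and below the primary clones in WT, where line 4 was highest, and the groups overlapped in Prkd3-/-. The Log2FC was 0.57 ± 0.42 in WT (SE, adjusted p = 0.514) and -0.19 ± 0.32 in Prkd3-/- (adjusted p = 0.922).

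Col1a2, its partner chain (chr6:4504814-4541544), had 10204, 10695 and 10008 CPM in WT primary clones, 12132, 16883 and 8656 in WT lines, 8544, 5979 and 6675 in Prkd3-/- primary clones and 4951, 6984, 7933 and 9848 in Prkd3-/- lines. The order of the WT lines was that of Col1a1, with line 4 highest and line 5 lowest, whereas among Prkd3-/- lines line 15 was highest for Col1a2 and not for Col1a1. Its Log2FC was 0.28 ± 0.30 in WT (adjusted p = 0.652) and 0.06 ± 0.29 in Prkd3-/- (adjusted p = 0.975).

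Col3a1, the single chain of type III collagen of pliable tissues (chr1:45311538-45349706), had 7053, 7555 and 7229 CPM in WT primary clones and 1919, 7096 and 2877 in WT lines. The Prkd3-/- levels were 3945, 3149 and 1817 CPM in primary clones and 912, 1405, 3542 and 1111 in lines. Line 4 kept the primary level in WT and line 14 lay within the primary range in Prkd3-/-, while the other lines were lower than every primary clone of their genotype. The Log2FC of -0.88 ± 0.50 in WT (adjusted p = 0.402) and -0.77 ± 0.52 in Prkd3-/- (adjusted p = 0.843) did not pass the test.

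Col5a1, a type V chain that starts fibers of type I collagen (chr2:27886425-28039514), had 3101, 3151 and 3181 CPM in WT primary clones, 5996, 7071 and 1908 in WT lines, 2832, 1774 and 2636 in Prkd3-/- primary clones and 1157, 1613, 1904 and 1842 in Prkd3-/- lines. WT lines 3 and 4 lay above and line 5 below the primary clones, whereas the Prkd3-/- lines lay at or below the range of theirs. The Log2FC was 0.67 ± 0.48 in WT (adjusted p = 0.505) and -0.58 ± 0.27 in Prkd3-/- (adjusted p = 0.787), and the difference between genotypes of -1.23 ± 0.54 had an adjusted p of 1. Col5a2, the second type V chain (chr1:45374321-45503282), had 3955, 4054 and 3829.7 CPM in WT primary clones, 3039.8, 4879 and 2169 in WT lines, 2373, 1656 and 2131 in Prkd3-/- primary clones and 1463, 969, 1312 and 3106 in Prkd3-/- lines. The groups of Col5a2 overlapped in both genotypes, with a Log2FC of -0.23 ± 0.32 in WT (adjusted p = 0.738) and -0.27 ± 0.40 in Prkd3-/- (adjusted p = 0.908).

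Col24a1 (chr3:145292472-145552011), a minor fibrillar collagen, was the one collagen gene whose lines lay below every primary clone in both genotypes with a Log2FC of -1 or less in each, a pattern that 1.87% of 19311 genes tested in both had, with 0.0777% above in both. It had 3.62, 3.39 and 2.83 CPM in WT primary clones and 0.0161, 0.322 and 0.688 in WT lines. In Prkd3-/- it had 1.36, 3.98 and 1.26 CPM in primary clones and 0.229, 0.288, 0.344 and 0.310 in lines, so the 4 Prkd3-/- lines were alike while WT line 3 stood at 1 count. The Log2FC was -3.25 ± 0.96 in WT (edgeR adjusted p = 0.141, DESeq2 0.00255) and -2.91 ± 0.52 in Prkd3-/- (edgeR adjusted p = 0.296, DESeq2 5.79e-05). The edgeR test did not call it in either genotype under any alternative run, and the WT value came closest without line 3 (adjusted p = 0.0178). With 1 library left out, the Log2FC ran from -4.28 (without line 5) to -2.69 (without line 3) in WT and from -3.19 (without primary clone 15) to -2.16 (without primary clone 14) in Prkd3-/-. Macrophage marker levels were, like Col24a1, lower in every WT line and highest in clone 14 among Prkd3-/- primary clones. Among the Prkd3-/- lines they ranged from 10.3 to 174 CPM while Col24a1 stayed between 0.229 and 0.344, and line 13a exceeded primary clone 13 in the markers (174 against 87.3 CPM) but not in Col24a1. Their part in the result was not tested.

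Col2a1, the chain of cartilage collagen, was singled out after its values were seen, with 210.3, 206 and 162 CPM in WT primary clones, 245, 676 and 6.12 in WT lines, 80.2, 98.6 and 127 in Prkd3-/- primary clones and 82.5, 807, 2015 and 369.9 in Prkd3-/- lines. It was 110.5-fold higher in WT line 4 than in line 5, and 3 of the 4 Prkd3-/- lines lay above their primary clones. The Log2FC was 0.68 ± 1.28 in WT (adjusted p = 0.818) and 3.00 ± 0.99 in Prkd3-/- (adjusted p = 0.667). The chondrocyte regulator Sox9 had 37.2, 15.2 and 29.3 CPM in Prkd3-/- primary clones and 9.60, 90.4, 131 and 48.0 in lines, highest in line 14 like Col2a1. The cartilage genes Acan and Hapln1 did not share that order, with 0.00 and 0.02 CPM in line 14. The chondrocyte list summed to 20.6 to 52.3 CPM in Prkd3-/- primary clones and 38.1 to 136 in lines. Sox9 itself was the larger part of that sum in every Prkd3-/- library except line 13. The part of other cell types in the Col2a1 values was not tested. Col11a1, a chain of cartilage fibers, had 779.5, 795 and 712 CPM in WT primary clones and 66.9, 1591 and 237 in WT lines, a 23.8-fold range. Col5a3 and Col27a1 lay below every WT primary clone in every WT line, without passing the thresholds, at 30.0 to 101 against 166 to 189 CPM and 2.51 to 10.5 against 14.9 to 16.3 CPM.

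**Figure D3:**
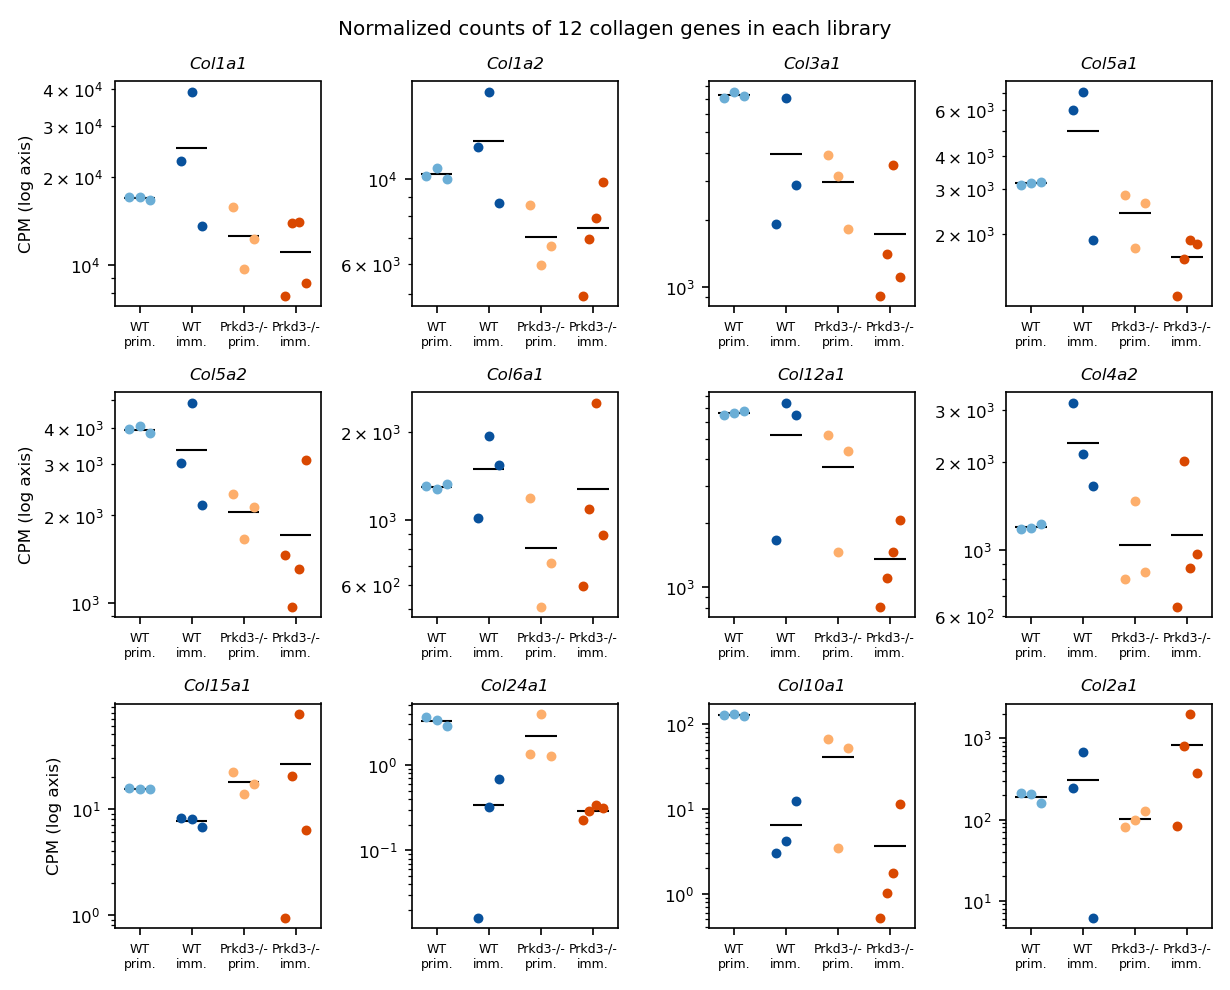
Level of 12 collagen genes in each library (y axes, CPM on log axes of their own) by genotype and state (x axis), with dots for libraries and lines for group means. The WT primary clones nearly coincide while the WT lines spread, except for Col15a1. Col24a1 is low in the lines of both genotypes, and so is Col10a1, though its states overlap in Prkd3-/-.

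Of the 6 basement membrane genes, 4 lay above every WT primary clone in every WT line, namely Col4a1, Col4a2, Col4a3 and Col4a4, against 14% of all genes. None of the 6 was called by edgeR, 4 passed an unadjusted p under 0.05 (19.7% of all genes), and DESeq2 called 2 higher, Col4a3 and Col4a4 (0.545% of all genes). The median Log2FC of the class was 1.00 in WT and 0.25 in Prkd3-/-, where all 6 genes overlapped between states, 0 were called by edgeR or DESeq2 and 0 passed an unadjusted p under 0.05.

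Col4a1 and Col4a2 encode the ubiquitous type IV collagen of basement membranes. Col4a2 (chr8:11312805-11449287) had 1186, 1192 and 1229 CPM in WT primary clones, 3180.2, 2132 and 1652 in WT lines, 797, 1477 and 846 in Prkd3-/- primary clones and 642, 2010.2, 872 and 975 in Prkd3-/- lines. Col4a1 (chr8:11198423-11312826) had 1167, 1197 and 1219.7, 4002, 1957 and 1502, 889, 2116 and 938 and 890.0, 2323, 945 and 1109.6 CPM in the same groups. Both genes were highest in line 3 among WT lines, in clone 14 among Prkd3-/- primary clones and in line 13a among Prkd3-/- lines. In WT the Log2FC was 1.06 ± 0.38 for Col4a1 (adjusted p = 0.21) and 0.95 ± 0.26 for Col4a2 (adjusted p = 0.123). In Prkd3-/- it was -0.01 ± 0.47 for Col4a1 (adjusted p = 0.999) and 0.10 ± 0.44 for Col4a2 (adjusted p = 0.973), and without primary clone 14 the Col4a1 value was 0.52. The summed myofibroblast markers (Acta2, Tagln, Cnn1 and Myh11) were also highest in WT line 3, with 10614 CPM against 4189 to 4278 in WT primary clones, and in Prkd3-/- primary clone 14, with 8434 CPM. WT lines 4 and 5, in which Col4a1 and Col4a2 also exceeded the primary clones, had 3762 and 2576 CPM of these markers, below every primary clone, and among Prkd3-/- lines the markers were highest in line 15 (5361) and not in line 13a (5139.8). Their part in these values was not tested.

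Col4a3 and Col4a4, type IV chains known from kidney and lung basement membranes, were low. Col4a3 had 0.107, 0.403 and 0.358 CPM in WT primary clones and 0.838, 3.27 and 1.93 in WT lines, and 5.65% of its exon bases are shared with a neighboring gene. Col4a4 had 0.736, 0.425 and 0.465 and 0.773, 4.11 and 4.10 CPM in these groups. The Log2FC in WT was 2.78 ± 0.69 for Col4a3 (edgeR adjusted p = 0.094, DESeq2 0.000566) and 2.46 ± 0.68 for Col4a4 (edgeR 0.123, DESeq2 0.00235). The X-linked chains Col4a5 and Col4a6 overlapped between states in both genotypes. Col4a5 ranged from 42.8 to 308 CPM over the 13 libraries, whereas Col4a6 had 9.75, 10.6 and 14.8 CPM in WT primary clones and 18.1, 0.762 and 0.673 in WT lines 3, 4 and 5.

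Among the FACIT genes, the abundant Col12a1 and Col16a1 overlapped between states in WT, and the scarce type IX chains were lower in every WT line. Col14a1, Col19a1 and Col22a1 also overlapped in WT, and Col20a1 was higher in every WT line. Of 9 tested in WT and 8 in Prkd3-/-, 0 were called by edgeR in either genotype, 3 and 1 passed an unadjusted p under 0.05 (19.7% and 6.56% of all genes), and DESeq2 called 3 lower in WT (Col9a1, Col9a2 and Col9a3, against 5.39% of all genes) and 0 in Prkd3-/-.

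Col12a1, which binds the surface of type I fibers (chr9:79598991-79718831), had 6496, 6658 and 6811 CPM in WT primary clones and 1672, 7415 and 6514 in WT lines. Prkd3-/- cells had 5228, 1457 and 4378 CPM in primary clones and 804, 1107, 1462 and 2061 in lines. WT line 3 stood alone at the low end while lines 4 and 5 kept the primary level, and in Prkd3-/- only primary clone 14 reached down to the lines. The Log2FC was -0.36 ± 0.54 in WT (adjusted p = 0.764) and -1.45 ± 0.49 in Prkd3-/- (adjusted p = 0.669). Leaving out 1 Prkd3-/- library at a time gave -1.83 to -1.12.

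Col9a1, Col9a2 and Col9a3 form type IX collagen, the FACIT of cartilage. Col9a2 had 4.66, 5.08 and 4.70 CPM in WT primary clones and 0.0322, 0.677 and 0.765 in WT lines, with a Log2FC of -3.29 ± 0.91 (adjusted p = 0.122). Col9a3 had 1.21, 1.13 and 0.769 and 0.209, 0.389 and 0.398 CPM, with a Log2FC of -1.64 ± 0.36 (adjusted p = 0.0625), and shares 6.07% of its exon bases with Tcfl5. Col9a1 had 0.215, 0.261 and 0.197 CPM in WT primary clones and at most 1 count in each WT line. All 3 chains were highest in line 14 among the Prkd3-/- lines, at 1.77, 3.85 and 3.38 CPM. Col14a1, another fiber-bound FACIT, spanned the widest range of the class in Prkd3-/- lines 13, 13a, 14 and 15, with 0.0382, 97.1, 43.8 and 0.270 CPM, against 6.59, 20.7 and 3.93 in the primary clones. Col16a1 was at 201 to 270.3 CPM in WT lines and 263 to 269 in WT primary clones. Col20a1 lay above every WT primary clone in every WT line, at 1.51 to 5.46 against 1.36 to 1.48 CPM, without passing the thresholds, and Col19a1 and Col22a1 overlapped.

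Col15a1 (chr4:47208161-47313167) encodes a multiplexin of the zone between basement membrane and fibers. It had 15.5, 15.3 and 15.1 CPM in WT primary clones 3, 4 and 5 and 8.23, 8.01 and 6.70 in lines 3, 4 and 5, so all lines were low and the groups did not overlap. In WT it fell to a mean of 7.65 ± 0.829 from 15.3 ± 0.173 CPM (SD, n = 3 each), a fall by 1.00 ± 0.12 (SE) on the log2 scale (adjusted p = 0.00913) that sits at both thresholds. With the clone number as a block, as lines and primary clones of WT share embryos, the adjusted p was 0.0860, and in a fit over all 13 libraries it was 0.873. The call was lost without any 1 of the 3 WT primary clones (adjusted p 0.0683 to 0.0739), without line 4 (0.0188) and without line 5, where the Log2FC was -0.91. Prkd3-/- cells had 22.1, 13.8 and 17.1 CPM of Col15a1 in primary clones and 0.935, 20.4, 78.1 and 6.36 in lines 13, 13a, 14 and 15, with line 14 above and lines 13 and 15 below the primary clones. The Prkd3-/- Log2FC of 0.58 ± 1.17 (adjusted p = 0.938) rested on line 14 and was -0.94 without it, and the difference between genotypes of 1.58 ± 1.38 had an adjusted p of 1. The 8 endothelial markers summed to 0.725 to 2.95 CPM in WT lines against 14.2 to 19.0 in WT primary MEFs. Of the 5 tested, 4 lay below every primary clone in every line (Kdr, Tek, Emcn and Vwf), against 17.3% of all genes, and Cdh5 overlapped. The defining marker Pecam1 overlapped as well, at 0.0327 to 0.199 CPM in primary MEFs and up to 0.199 in line 5, and Tie1 and Cldn5 were at 0 in WT primary MEFs. Their part in the result was not tested.

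Of the 17 other collagens tested in WT, Col15a1 was the 1 called by edgeR, against 1.76% of all genes called lower. In every line 7 lay below every primary clone (Col6a5, Col6a6, Col10a1, Col15a1, Col18a1, Col25a1 and Col26a1) and Col17a1 lay above, against 17.3% and 14% of all genes. DESeq2 called 4, all lower (Col10a1, Col15a1, Col25a1 and Col26a1), against 5.39% of all genes. In Prkd3-/-, 0 of 16 were called by edgeR or DESeq2, against 0% and 0.781% of all genes. At an unadjusted p under 0.05, 2 passed (Col10a1 and Col18a1), against 6.56% of all genes. The states overlapped for all 16, where 5.26% and 4.19% of all genes lay below and above in every line. At an adjusted p under 0.05, edgeR called 5 collagen genes in WT, all lower (Col9a1, Col10a1, Col15a1, Col25a1 and Col26a1), against 4.16% of all genes that were lower at that threshold.

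Col10a1 (chr10:34389981-34397085), known as the collagen of hypertrophic cartilage, was singled out after its values were seen. It had 128, 133 and 125 CPM in WT primary clones and 3.00, 4.13 and 12.5 in WT lines, and the groups lay far apart. In Prkd3-/- it had 67.1, 3.44 and 51.8 CPM in primary clones and 0.515, 1.01, 1.77 and 11.4 in lines, where primary clone 14 was low and line 15 lay above it. The Log2FC was -4.30 ± 0.60 in WT (edgeR adjusted p = 0.0167, DESeq2 4.04e-14) and -3.48 ± 1.29 in Prkd3-/- (edgeR adjusted p = 0.71), and with 1 library left out the Prkd3-/- value ran from -5.21 (without line 15) to -2.93 (without primary clone 13). The 10 chondrocyte markers summed to 24.5 to 72.6 CPM in WT lines and 50.8 to 66.6 in WT primary MEFs, which overlapped. Of the 6 tested, Comp, Hapln1 and Acan lay below every primary clone in every line, against 17.3% of all genes. Sox5, Matn3 and Sox9 overlapped, with Sox9 at 26.0, 23.6 and 22.9 CPM in primary clones and 13.7, 49.6 and 70.2 in lines. Comp had 15.6, 15.4 and 13.2 CPM in WT primary clones and 1.21, 2.34 and 0.398 in lines, and Hapln1 5.69, 5.88 and 3.11 and 0.0161, 0.135 and 0.0765. The osteoblast regulator Runx2 was at 36.6 to 64.6 CPM in WT lines and 42.9 to 45.6 in WT primary clones. The part of other cell types in the Col10a1 result was not tested.

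The transmembrane collagen Col25a1 and the secreted Col26a1 were scarce and lower in every WT line. Col25a1 had 1.38, 1.77 and 2.04 CPM in WT primary clones and 0.145, 0.102 and 0.0153 in WT lines (Log2FC -4.29 ± 0.65, adjusted p = 0.0203). Col26a1 had 1.07, 1.12 and 1.05 and 0.0161, 0.135 and 0.0459 CPM in these groups (Log2FC -4.02 ± 0.62, adjusted p = 0.0215). Prkd3-/- levels of Col25a1 were 1.68, 0.527 and 0.926 CPM in primary clones and 0.535, 0.452, 0.360 and 0.0405 in lines. These groups overlapped (Log2FC -1.60 ± 0.78, adjusted p = 0.790). In Prkd3-/- Col26a1 was near the detection floor of 3 counts (0.0299 to 0.0850 CPM, depending on the library) in most libraries and reached 9.65 CPM in line 14.

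Col6a1 (chr10:76708792-76726168), a chain of the beaded filaments around cells, had 1309, 1277 and 1327 CPM in WT primary clones, 1017, 1935 and 1551 in WT lines, 1194, 506 and 717 in Prkd3-/- primary clones and 596, 1096, 2523 and 891 in Prkd3-/- lines. WT line 3 was the lowest of the WT libraries, line 14 was the highest of all 13, and the states overlapped in both genotypes. The Log2FC was 0.20 ± 0.25 in WT (adjusted p = 0.711) and 0.66 ± 0.54 in Prkd3-/- (adjusted p = 0.857). Col18a1, the second multiplexin and source of endostatin, lay at 130.2, 144 and 42.3 CPM in WT lines against 206, 213 and 225 in WT primary clones, without passing the thresholds. Col23a1, a transmembrane collagen, and Col28a1 were highest by far in single lines. Col23a1 had 0.267, 4.78, 330.0 and 0.594 CPM in Prkd3-/- lines 13, 13a, 14 and 15. Col28a1 had 0.500, 2.62 and 36.0 CPM in WT lines 3, 4 and 5 and 0.115, 4.44, 30.2 and 3.56 in the Prkd3-/- lines. The anchoring fibril gene Col7a1 spanned 39.3 to 239 CPM in WT lines and 1.57 to 99.7 in Prkd3-/- lines.

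**Figure D4:**
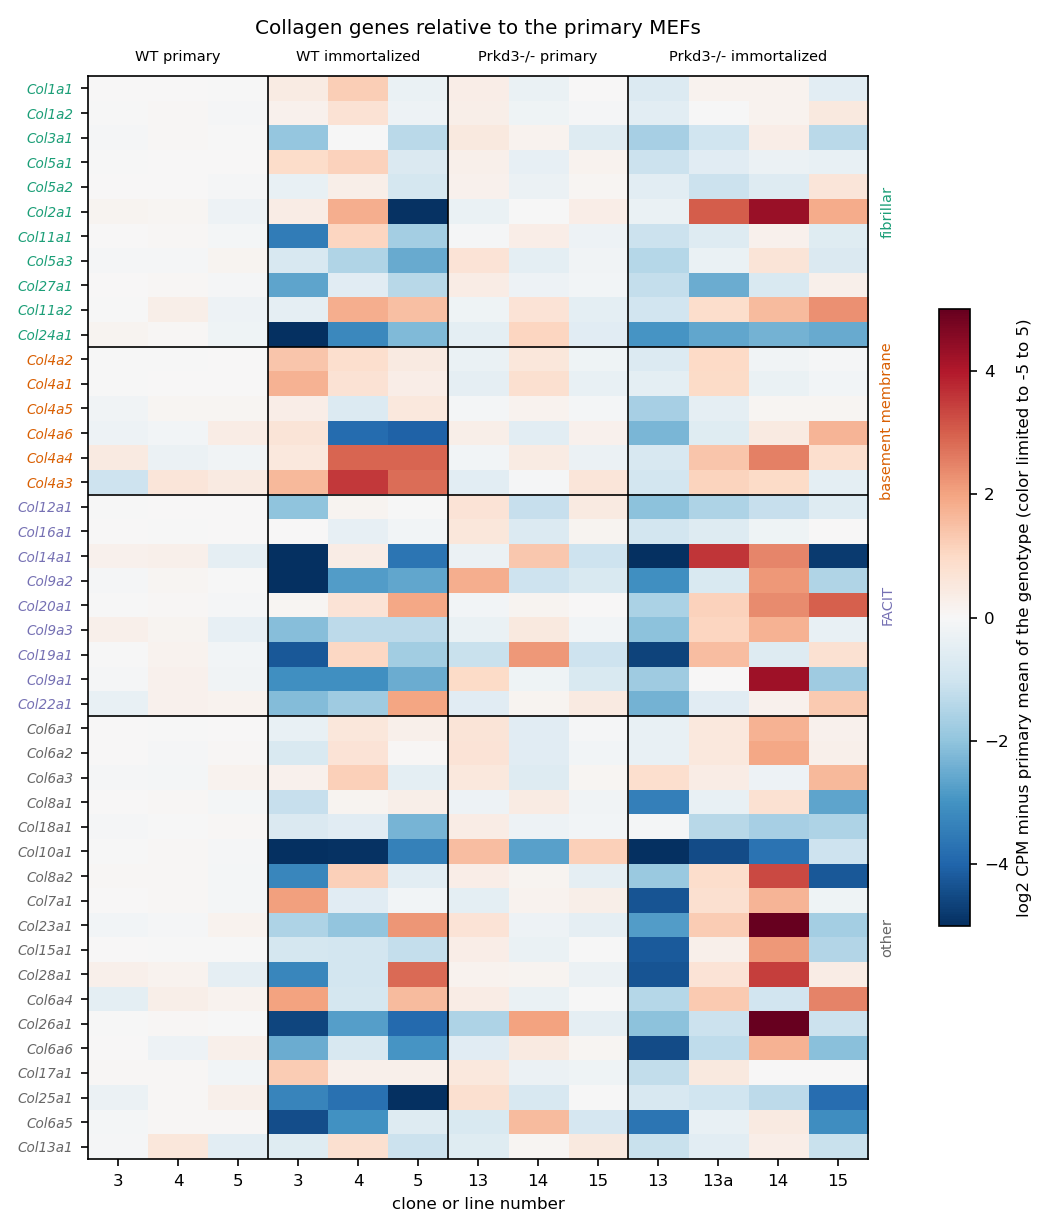
Level of the 44 collagen genes (rows, by class and then by level per kilobase) in the 13 libraries (columns, clone or line number), as log2 CPM with a prior count of 2 minus the mean of the primary clones of the same genotype. Red and blue alternate between lines of one genotype for most genes, and Prkd3-/- line 13 is mostly blue. Col24a1, Col10a1 and Col25a1 are blue throughout the lines, and so is Col18a1, though only faintly in Prkd3-/- line 13.

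The lines differed among themselves more than the primary clones did. In WT, the SD of log2 CPM over libraries was larger among lines than among primary clones for 43 of 43 tested collagen genes, against 88.7% of all genes, and its median was 1.03 among lines and 0.08 among primary clones (all genes, 0.33 and 0.08). In Prkd3-/- it was larger among lines for 35 of 41, against 82.7% of all genes, with medians of 1.38 and 0.50 (all genes, 0.54 and 0.26). Among the 10 collagen genes highest per kilobase, the highest WT line exceeded the lowest by 1.90-fold (Col6a1) to 4.43-fold (Col12a1). Among the others above the floor of 3 counts in every WT line the range was wider, from 1.23-fold for Col15a1 to 110.5-fold for Col2a1.

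Line 13 was the lowest of the 4 Prkd3-/- lines for 36 of 44 collagen genes, where it was lowest for 33.9% of all genes tested. Line 14 was the highest for 23 of 44, where it was highest for 28.9% of all genes. Line 13a, of the same clone number as line 13, was lowest for 2 and highest for 6. For the network collagen Col8a1 line 13 had 51.2 CPM and line 13a 411. Line 13 was the highest of the lines for 2 genes, Col18a1 and Col25a1. Among WT lines, line 4 was highest for 22 and line 3 lowest for 22, against 28.3% and 35.5% of all genes.

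Chains that assemble together kept their ratio to different degrees, as the log2 ratio of counts per kilobase showed. Col6a1 and Col6a2 kept the narrowest range over the 13 libraries, from 1.24 to 1.78, although each gene alone spanned 2.32 and 2.50 on the log2 scale. For Col4a1 and Col4a2 the ratio ran from -0.31 to 0.34, with spans of 2.17 and 2.31 for the single genes. The Col1a1 to Col1a2 ratio ran from 1.56 to 2.14 in 12 libraries and was 0.73 in Prkd3-/- line 15. Col5a1 to Col5a2 ran from -0.59 to 1.14, with the WT primary clones between -0.20 and -0.10 and WT line 3 at 1.14. Col8a1 to Col8a2 ran from 1.00 to 6.21, the widest of the 5 pairs, and was 2.05 to 2.07 in WT primary clones and 3.98 to 4.85 in Prkd3-/- primary clones. Genes that lie side by side did not all share a ratio, since the X-linked neighbors Col4a5 and Col4a6, 1308 bases apart, ran from 3.86 to 9.09, while the chromosome 8 neighbors Col4a1 and Col4a2 overlap by 22 bases.

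**Figure D5:**
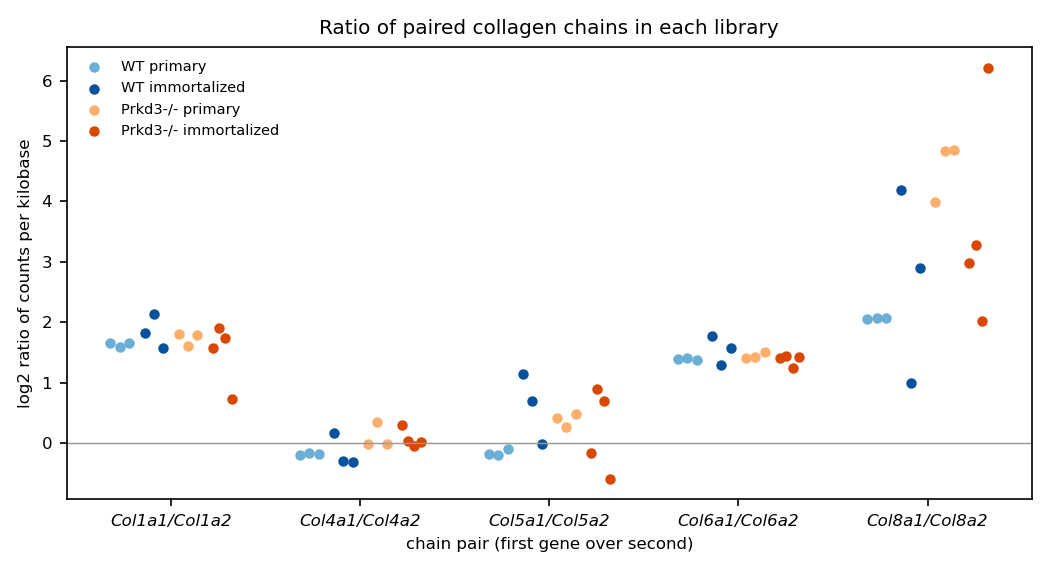
Log2 ratio of counts per kilobase of exon (y axis) for 5 pairs of collagen chains (x axis), with 1 dot per library colored by group. Col6a1/Col6a2 and Col4a1/Col4a2 stay within 0.53 and 0.66, Prkd3-/- line 15 drops to 0.73 for Col1a1/Col1a2, and Col8a1/Col8a2 spreads over 5.22.

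The enzymes and helpers of collagen synthesis mostly overlapped between states. Of 33 listed genes, 31 were tested in each genotype. In WT, edgeR called 1 lower, Adamts3, and 0 higher, against 1.76% and 0.0605% of all genes, while 5 lay below and 6 above in every line, against 17.3% and 14% of all genes. DESeq2 called 1 lower in WT, Adamts3, and 1 higher, Adamts2, against 5.39% and 0.545% of all genes. None of 31 was called in Prkd3-/- by edgeR (0% of all genes), and DESeq2 called 1 lower, Adamts3 (0.67% of all genes). Adamts3, a protease that removes the amino-terminal propeptide of procollagen, had 11.8, 10.4 and 12.2 CPM in WT primary clones and 0.338, 0.271 and 0.291 in WT lines. Its Prkd3-/- levels in these groups were 5.23, 1.91 and 2.58 and 0.0573, 0.740, 0.313 and 0.526 CPM, again without overlap. The Log2FC of Adamts3 was -5.25 ± 0.17 in WT (adjusted p = 0.000254), and its relative Adamts2 had 98.6, 102 and 97.9 CPM in WT primary clones and 169.8, 274 and 261 in WT lines (Log2FC 1.24 ± 0.20, adjusted p = 0.023). Creb3l1, a transcription factor of collagen secretion, had 133, 123 and 114 and 284, 223 and 222 CPM (adjusted p = 0.0158), and the cross-linking oxidase Lox 5072, 4794 and 4559 and 6277, 6042 and 13512 CPM (adjusted p = 0.285). The chaperone Serpinh1, which binds the triple helix in the endoplasmic reticulum, overlapped between states in both genotypes. Of 10 collagen receptors, 9 were tested and edgeR called 1 lower in WT, Lair1, and 0 in Prkd3-/-, against 1.76% and 0% of all genes. Lair1, an inhibitory receptor of leukocytes, had 7.36, 7.77 and 7.90 CPM in WT primary clones and 0.258, 0.203 and 0.321 in WT lines (adjusted p = 0.000471), alongside the macrophage markers. The fibroblast receptors Itgb1, Ddr2 and Mrc2 overlapped between states in both genotypes. Of the 9 tested receptors, 2 lay below every WT primary clone in every WT line and 1 above, against 17.3% and 14% of all genes. Those below were Lair1 and Itga1 (Itga1 31.6 to 47.7 against 51.9 to 54.5 CPM, edgeR adjusted p = 0.207). The 1 above was Itga11 (370.0 to 735 against 164 to 260.0 CPM, edgeR adjusted p = 0.124).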

How the data were processed

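The authors prepared poly-A libraries and deposited gene counts for the 6 WT and 7 Prkd3-/- libraries in 2 tables. Per the file headers and the submitters' processing notes, reads were aligned with STAR 2.7.10a to mm10 (GRCm38) and read pairs were counted with featureCounts of Subread 2.0.6 against Ensembl genes, unstranded, with a pair given to every gene it overlaps; the Prkd3-/- table states no command. Reads shared by overlapping or antisense genes therefore cannot be told apart, and collagen genes shared at most 6.07% of their exon bases with another gene. The deposited tables also hold other columns, namely coordinates and exon length, which gave positions and levels per kilobase. Samples were grouped by the genotype and state in their labels.

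Counts were tested with edgeR 4.0.16 (quasi-likelihood, TMM, filterByExpr, robust) in R 4.3.3, primary against immortalized within each genotype and as an interaction over 13 libraries, with Benjamini-Hochberg adjustment over all genes tested. CPM are on the TMM scale of all 13 libraries. The WT comparison, its samples and its thresholds follow the study, which used DESeq2. The alternatives were DESeq2 1.42.0, limma 3.58.1 (voom), other size factors, library size alone, other filters, a fit over all libraries, a replicate block, lines 13 and 13a summed and each library left out. The scripts were tested on simulated data. The rule for genes described library by library took those past the thresholds and the 8 with the highest level per kilobase. It also took those with non-overlapping states and an absolute Log2FC of at least 1 in both genotypes. Other collagen genes given by library, such as Col4a1, Col4a3, Col9a2, Col14a1, Col23a1 and Col25a1, fell outside this rule. They were picked with their values known, as were Col2a1 and Col10a1. The collagen genes, classes and marker, synthesis and receptor lists were chosen with earlier results of these data known.

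WT lines and primary clones with the same number came from the same embryo; their deviations from the group means correlated at -0.05 to 0.04. For Prkd3-/- the correlations were -0.31 to 0.15. Within every group, pairs of libraries differed by more than sampling noise (median chi-square per gene at least 1.52, with 1 degree of freedom). The p-values measure the spread between these clones and lines. A total of 35273408 or more counts per library puts the floor of 3 counts at 0.0850 CPM or lower, which covers counting error only.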

Additional observations from a re-analysis of the deposited data

Results flagged for a closer look

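In the 4 Prkd3-/- immortalized lines, 9 of 44 collagen genes had 1 line set apart from the other lines by Dixon's test on CPM, and in all 9 it was the highest line. Chance flags about 1 in 20 groups, but over 27667 genes with the same count minimum 12.9% had a line set apart, the highest line in 92.2% of them. Line 14 was set apart as the highest for 28.1% of those genes and for 6 of the 9 collagen genes, with 1.77 CPM of Col9a1, 3.85 of Col9a2, 330.0 of Col23a1, 9.65 of Col26a1, 30.2 of Col28a1 and 2.06 of Col6a6. Line 13a was set apart for Col4a1 with 2323 CPM, line 15 for Col10a1 with 11.4 CPM and line 13 for Col18a1 with 139.7 CPM. Groups of 3 libraries were not examined in this way.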

How the results depend on the processing

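The count of called WT collagen genes, 1 as reported, was 10 with DESeq2, 5 at an adjusted p under 0.05, 2 without the filter on low counts, and 0 with at least 10 counts asked of every library, in a fit over all 13 libraries and with the replicate block, and 0 to 4 with 1 library left out. Shares of all genes are given above for DESeq2 and for an adjusted p under 0.05, but not for the other settings. The Prkd3-/- count of 0 was 1 with DESeq2, and it was 0 with the replicate block and with any 1 library left out, as was the interaction count. The replicate block changed no other call. Other size factors and library size alone left the counts at 1 and 0, and limma called 1 WT gene, Col10a1. The share of counts differed by -0.97 to 1.24 percentage points in WT and -0.75 to 0.01 in Prkd3-/- with 1 library left out.

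The Log2FC of 32 gene and genotype combinations was recomputed under each alternative, 501 values in all, of which 24, in 9 combinations, turned sign. None of those 9 passed the thresholds as reported. With 1 library left out, the Log2FC in WT ran from -0.60 to 0.0075 for Col5a2, -0.70 to 0.067 for Col12a1, -0.022 to 0.42 for Col6a1 and -0.62 to 1.26 for Col2a1, and in Prkd3-/- from -0.94 to 0.99 for Col15a1, -0.35 to 0.0041 for Col1a1, -0.10 to 0.22 for Col1a2, -0.45 to 0.52 for Col4a1 and -0.35 to 0.45 for Col4a2. Col2a1 in WT was -0.92 with limma, -0.51 with the replicate block and -0.93 as a difference of mean log2 CPM. Col15a1 in Prkd3-/- was -0.76, -0.29 and -0.81 in these fits, and Col4a1 in Prkd3-/- was 0.0027 in the fit over all libraries, 0.0043 with limma and 0.045 with the replicate block. The cause was not tested. Scarce genes were near the floor in some libraries. Of the 44 collagen genes, 36 exceeded the floor of 3 counts in WT line 3 and Prkd3-/- line 13, and 44 in WT primary clones 3 and 4. These numbers did not follow library totals, at 69190459 counts in WT line 3 and 64306017 in WT primary clone 3. The smallest library, Prkd3-/- primary clone 15, had 35273408 counts and 41 collagen genes over the floor.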
